A study of Drosophila melanogaster with 13 samples.

Results

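The comparison of Ubx expressed together with Homothorax (Ubx + Hth) with Ubx carrying mutations that remove its DNA contacts (mutant Ubx) was described from the binding peaks of these conditions. Its members are all peaks of the 4 lists deposited for these conditions. They number 9764 of the 34149 peaks of the series at a q-value of 1e-10, called stringent here, and 21044 of the 59671 peaks at a q-value of 1e-2, called relaxed. The study expressed Hox proteins fused to GFP in Kc167 cells and mapped where they bound by ChIP-Seq, using an antibody to GFP. Kc167 is a Drosophila cell line that came from female late embryos. It makes no Hox protein of its own and no Hth, and its Extradenticle (Exd) stays outside the nucleus.

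Both conditions came from Experiment 2, with 2 replicates each and reads of 100 bp. Cells were transiently transfected with metallothionein-inducible vectors and sorted for the same range of GFP fluorescence. In Ubx + Hth a bicistronic vector made Hth and eGFP-tagged wild type Ubx, joined by a self-cleaving peptide. In mutant Ubx the vector made eGFP-tagged Ubx whose homeodomain had several DNA-contacting residues replaced, and no Hth. The conditions therefore differ in both the homeodomain and the cofactor, and the shares of these in any difference cannot be told apart from this comparison alone. Ubx without Hth was also profiled in Experiment 2, with 1 replicate, and Ubx, Abd-A and Abd-B in Experiment 1, with 2 replicates each and reads of 36 bp. Peaks of every condition were called against the input chromatin of Experiment 1, and replicates were combined beforehand, so 1 list stands for each condition and no value below has a replicate error or a test. The ranges in parentheses are 95% intervals by Wilson's method, which reflect only how many peaks were counted. By the paper's counts the Ubx + Hth and mutant Ubx libraries were of a similar order of size, with more reads for Ubx + Hth. The libraries of the other conditions had far fewer reads. The lists themselves hold no read counts.

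Hox proteins are transcription factors that specify segment identity along the body axis and bind DNA through a homeodomain. Exd and Hth are homeodomain proteins of another family that bind DNA together with Hox proteins and extend the DNA site that the complex reads. Hth carries Exd into the nucleus, so a cell without Hth lacks both cofactors at its chromatin. A Hox protein whose homeodomain no longer contacts DNA can still be brought to chromatin through other proteins or by crosslinking near open DNA, and its profile serves as a reference for signal that does not need direct DNA contact.

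Mutant Ubx gave far fewer stringent peaks than Ubx + Hth, and nearly all of them lay inside Ubx + Hth peaks. There were 7971 stringent peaks for Ubx + Hth and 1793 for mutant Ubx, a difference of 6178 peaks. At the relaxed q-value the lists were closer in length, with 11698 and 9346 peaks and a difference of 2352. Peaks of different lists were called partners when their shared stretch made up at least 5% of the width of both. By this rule 1728 of the 1793 stringent mutant peaks had a stringent Ubx + Hth partner, which is 96.4% (95.4 to 97.1). In the other direction 1518 of the 7971 stringent Ubx + Hth peaks had a stringent mutant partner, which is 19.0% (18.2 to 19.9). Both shares rest on the same 1730 pairs, taken over lists of unequal length.

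The rest of the Ubx + Hth list divided between peaks with a mutant partner in the relaxed list only and peaks with none. When the partner was sought in the relaxed mutant list, 5145 of the stringent Ubx + Hth peaks had one, or 64.5% (63.5 to 65.6). The remaining 2826 peaks, 35.5% of the list, had no mutant partner even at the relaxed q-value. With both lists relaxed, 5567 Ubx + Hth peaks (47.6%) and 6720 mutant peaks (71.9%) had a partner. Of the stringent mutant peaks, 1707 (95.2%) had a partner in the relaxed Ubx + Hth list. This share was below that of the stringent list because relaxed Ubx + Hth peaks are wider and a narrow mutant peak inside one can cover under 5% of it. Measured in bases, stringent mutant peaks covered 672.6 kb, of which 96.7% lay inside stringent Ubx + Hth peaks. Stringent Ubx + Hth peaks covered 5468 kb, of which 11.9% lay inside stringent mutant peaks.

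Peaks are scored by −log10 of the q-value that the peak caller gave, so a score of 10 is the stringent limit and 2 the relaxed one. Ubx + Hth peaks scored higher at the median and at the top of the list. The median score was 50.1 for Ubx + Hth and 24.2 for mutant Ubx, and the highest scores were 523 and 379. A score of at least 100 was reached by 1715 Ubx + Hth peaks (21.5%) and by 27 mutant peaks (1.51%). Scores depend on read depth as well as on enrichment, and the part of depth in these gaps was not tested.

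The stringent list did not hold every place where the relaxed list passed the stringent limit, and fewer of them were held in mutant Ubx. In the relaxed lists 9321 Ubx + Hth peaks and 3547 mutant peaks scored at least 10. Of these, 2442 Ubx + Hth peaks (26.2%) and 1914 mutant peaks (54.0%) overlapped no stringent peak of their own condition. Their highest scores were 61.2 and 46.6, and their median scores 15.1 and 12.9. The narrowest peak was 197 bp for Ubx + Hth and 173 bp for mutant Ubx in both the stringent and the relaxed list. Whether a minimum width removed these places was not tested. When the relaxed lists were kept at a score of at least 10 in place of the stringent lists, 3018 Ubx + Hth peaks (32.4%, 31.4 to 33.3) had a mutant partner and 3412 mutant peaks (96.2%, 95.5 to 96.8) a Ubx + Hth partner. The share of mutant peaks was thus nearly the same by this choice, whereas that of Ubx + Hth peaks was 19.0% with the stringent lists. Of the 6453 stringent Ubx + Hth peaks without a stringent mutant partner, 1564 (24.2%) had a relaxed mutant partner with a score of at least 10. This choice was made after the values were seen.

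The share of Ubx + Hth peaks with a mutant partner fell steeply with score. Each list was ranked by score and divided into 10 parts of near-equal length. Of the 798 highest-scoring Ubx + Hth peaks, with scores of 154 or more, 503 had a stringent mutant partner, or 63.0% (59.6 to 66.3). The share was 40.4% in the next part, 15.2% in the fifth and 1.88% (1.14 to 3.08) in the lowest, where 15 of 797 peaks had a partner. With the relaxed mutant list the fall was shallower, from 90.2% in the highest part to 35.3% in the lowest. The highest part thus still held 78 peaks without a relaxed mutant partner.

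Mutant peaks showed no such slope. The share with a stringent Ubx + Hth partner was 96.1% (92.2 to 98.1) in the highest part of the stringent mutant list and 95.5% (91.4 to 97.7) in the lowest, and it lay between 93.3% and 98.9% in all 10 parts. In the relaxed mutant list, which reaches down to a score of 2.00, the share with a relaxed Ubx + Hth partner did fall, from 98.8% to 27.6%.

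**Figure D1:**
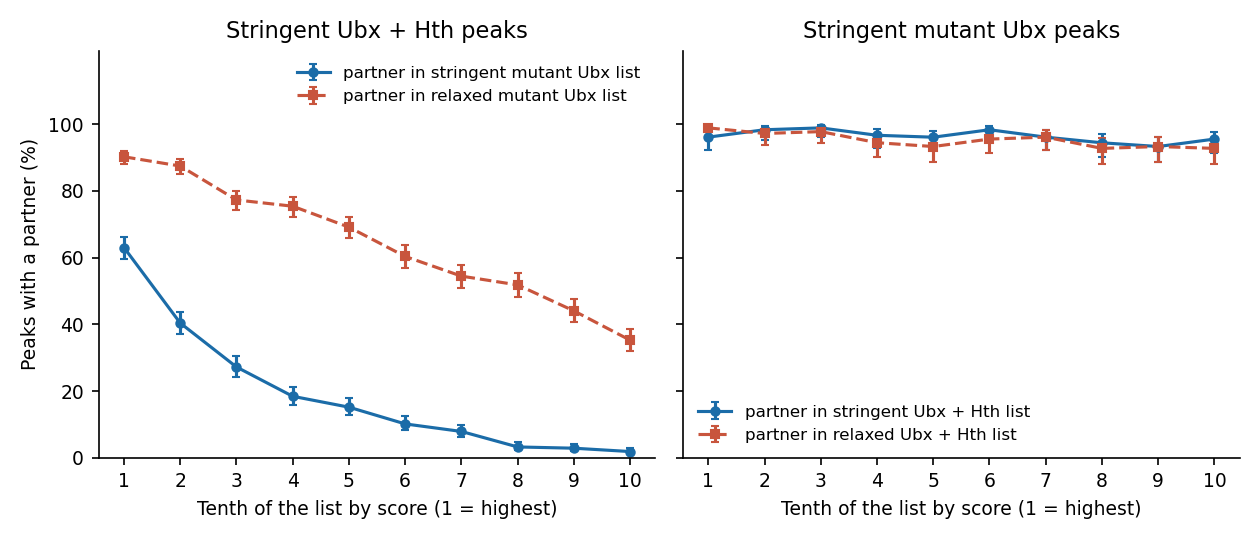
Share of stringent peaks with a partner (%, vertical axis) in 10 parts of each list ordered by score (horizontal axis, 1 is the highest), for Ubx + Hth peaks (left) and mutant Ubx peaks (right). Circles are partners in the stringent list and squares in the relaxed list, with Wilson 95% intervals. The left curves fall from 63.0% to 1.88% and from 90.2% to 35.3%, whereas the right curves stay above 90%.

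Lists shortened to equal length gave shares that were closer to each other. This largely follows from the equal lengths, since both shares count the same pairs. When only the 1793 highest-scoring Ubx + Hth peaks were kept, 884 of them (49.3%, 47.0 to 51.6) had a mutant partner and 1079 mutant peaks (60.2%, 57.9 to 62.4) had a Ubx + Hth partner. The shares fell as the lists were shortened. With 1000 peaks each they were 45.7% and 53.6%, with 500 peaks 39.4% and 45.2%, and with 100 peaks 23% (15.8 to 32.2) and 25% (17.5 to 34.3). The 100 strongest peaks of the conditions were thus mostly not partners of one another, although 96.1% of the highest part of the mutant list had a partner somewhere in the Ubx + Hth list. With 5000 relaxed peaks each the shares were 62.7% and 75.5%.

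Mutant peaks were narrow and sat inside wide Ubx + Hth peaks. The median width was 302 bp for stringent mutant peaks and 483 bp for stringent Ubx + Hth peaks, and 2.34% and 18.4% were at least 1000 bp wide. Of the 1728 partnered mutant peaks, 1604 (92.8%) lay wholly inside the partner. The partner was the wider peak in 1695 pairs (98.1%), by a median ratio of 3.34. The mutant peak covered a median of 29.7% of its partner (quartiles 17.6 and 49.6), and the midpoints lay a median of 165.5 bp apart. Between the stringent lists, few overlapping pairs were turned away by the 5% limit. Of 1748 overlapping pairs 18 were under the limit, the nearest at 4.96%, and the lowest accepted pair stood at 5.09%. Of the accepted pairs, 132 stood under 10%.

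Ubx + Hth peaks with a mutant partner were wider and stronger than those without. Their median width was 1016.5 bp and their median score 114, against 522 bp and 51.5 for the 3628 peaks with a relaxed mutant partner only, and 338 bp and 34.7 for the 2825 peaks with neither. By width alone, the share with a stringent mutant partner rose from 2.01% in the narrowest of 10 parts (197 to 241 bp) to 63.4% in the widest (1348 to 8534 bp). A wider peak also offers more bases in which a mutant peak can fall, and the part of this was not tested. Width and score moved together. Within the highest-scoring part, 48.6% (43.8 to 53.5) of the narrower 399 peaks and 77.4% (73.1 to 81.3) of the wider 399 peaks had a partner, but their median scores also differed, at 188 and 212. In the third part, where the median scores were 90.2 and 91.6, the shares were 18.1% (14.6 to 22.2) and 36.3% (31.8 to 41.2).

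**Figure D2:**
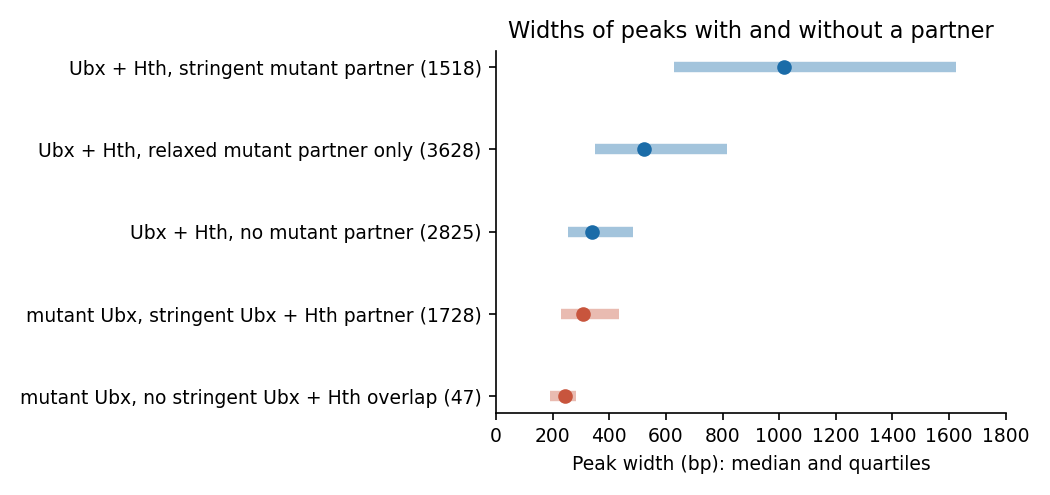
Peak width in bp (horizontal axis) for 5 classes of stringent peaks, with the number of peaks in parentheses. Points are medians and bars run from the lower to the upper quartile. Ubx + Hth peaks with a stringent mutant partner had a median of 1016.5 bp, and mutant peaks with no overlapping stringent Ubx + Hth peak had a median of 243 bp.

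A wide Ubx + Hth peak could hold several mutant peaks. There were 1346 stringent Ubx + Hth peaks with 1 mutant partner, 140 with 2 and 32 with 3 or more. The most was 5, inside a Ubx + Hth peak of 3555 bp and score 196 on 2L. This peak was chosen after its values were seen. Its 5 mutant peaks lay between 479101 and 481742 of BDGP release 5 and had scores of 17.2 to 51.8.

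Ubx + Hth peaks with a mutant partner were mostly peaks that Ubx alone also had. Of the 3876 stringent Ubx + Hth peaks that also had a partner in the stringent Ubx list of Experiment 2, 1390 had a stringent mutant partner, or 35.9% (34.4 to 37.4). Of the 4095 peaks with no such Ubx partner, 128 did, or 3.13% (2.64 to 3.70). The gap was wider among strong peaks. Within the highest-scoring part of the Ubx + Hth list, 498 of 715 peaks (69.7%, 66.2 to 72.9) with a Ubx partner had a mutant partner, and 5 of 83 (6.02%, 2.60 to 13.3) without one did. Within that part and among peaks of at least 1000 bp, the shares were 78.0% (391 of 501 peaks) and 4% (1 of 25 peaks). Among its peaks of 500 to 1000 bp they were 51.6% and 4.26%. In the eighth part the shares were alike, at 3.47% and 3.21%. They differed again in the ninth part, at 12.7% and 1.18%, and in the lowest, at 7.58% and 1.37%. The Ubx list comes from 1 replicate, and Ubx without Hth shares with mutant Ubx the absence of the cofactor. By the paper's counts this Ubx library also had far fewer reads than Ubx + Hth or mutant Ubx. The part of depth in a missing Ubx partner was not tested. At the relaxed q-value 72.1% of the 6931 Ubx + Hth peaks with a relaxed Ubx partner had a relaxed mutant partner, against 14.4% of the 1040 without.

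**Figure D3:**
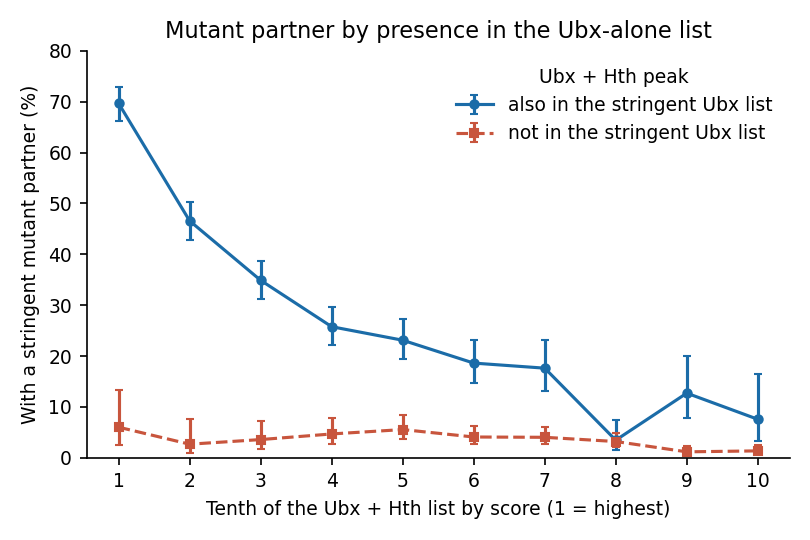
Share of stringent Ubx + Hth peaks with a stringent mutant Ubx partner (%, vertical axis) in 10 parts of the Ubx + Hth list by score (horizontal axis, 1 is the highest). Circles are peaks that also had a partner in the stringent Ubx list of Experiment 2 and squares are peaks that had none, with Wilson 95% intervals. Squares stay at or below 6.02% in every part, whereas circles start at 69.7%.

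In matched pairs the Ubx + Hth score was nearly always the higher one. Each partnered mutant peak was set beside the Ubx + Hth partner with the largest overlap. The median scores were 24.2 for the mutant and 123 for Ubx + Hth, and the median difference was 94.3 (quartiles 47.8 and 156). The Ubx + Hth score was higher in 1694 of 1728 pairs (98.0%). The scores went together only loosely. Spearman's rho was 0.35 across the 1728 pairs. It was 0.15 across 172 of the 173 pairs with a mutant peak in the highest part of its list. That subset was cut by mutant score and so spans a narrower range of it. All 1728 pairs share the input and the cell line, and peaks are not independent replicates. Partners of the highest part of the mutant list had a median rank of 370 among Ubx + Hth peaks, and partners of the lowest part a median rank of 1769.

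**Figure D4:**
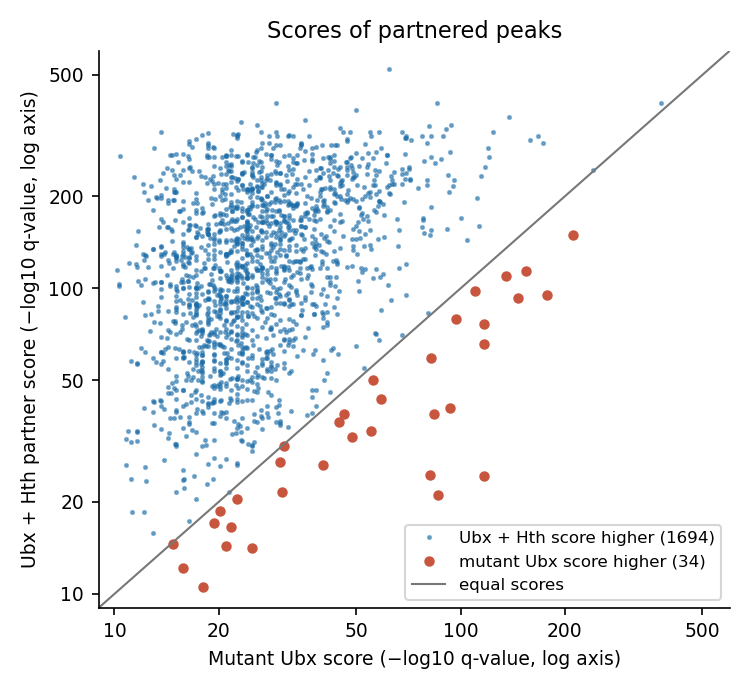
Score (−log10 q-value, logarithmic axes) of each of 1728 stringent mutant Ubx peaks (horizontal) and of its stringent Ubx + Hth partner (vertical). The line marks equal scores. The 34 pairs in which mutant Ubx scored higher are drawn as large points below the line, and 1694 pairs lie above it.

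The mutant score was higher in 34 pairs (1.97%), and these were concentrated at the top of the mutant list. That list is ranked by the same mutant score, so part of this concentration follows from the ranking. Its highest part held 18 of the 34 pairs. By chromosome 9 lay on 3L, 9 on 2R, 6 on X, 3 each on 2L, 3R and 4, and 1 on the mitochondrial genome. In the stringent and the relaxed lists of Experiment 1, 19 of the 34 (55.9%) had no partner, whereas 32 (94.1%) had one in the relaxed Ubx list of Experiment 2. Of all 1793 stringent mutant peaks, 1713 (95.5%) had a partner in a stringent list of Experiment 1 and 1726 (96.3%) one in the relaxed Ubx list of Experiment 2. The difference of scores within the pair was large for some. On chromosome 4 from 613808 to 614410 the mutant score was 117 and the Ubx + Hth score 24.4. On 3L from 23036848 to 23037327 they were 86.4 and 21.1. These pairs were named after their values were seen.

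The 5 highest mutant peaks all had stringent Ubx + Hth partners, which ranked 2, 172, 845, 1842 and 42 in the Ubx + Hth list. The highest lay on 2L from 21424918 to 21425294, with a score of 379 in the mutant list and 406 in the Ubx + Hth list, where it ranked 2. The next, on 2L from 22413429 to 22415624, scored 242 and 244. Another, on 3L from 23842336 to 23842649, scored 212 and 150. A peak on chromosome 4 from 615496 to 616015, scored 177 and 95.5, and one on 3R from 13336452 to 13336872 scored 173 and 299. Of these 5, none had a partner in a stringent list of Experiment 1, and 4 had one in the stringent Ubx list of Experiment 2.

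This held more widely for the top of the mutant list. Of the 25 highest mutant peaks, 9 (36.0%, 20.2 to 55.5) had a partner in any stringent list of Experiment 1, and 20 had one in the stringent Ubx list of Experiment 2. Of the 25 highest Ubx + Hth peaks, 23 (92.0%, 75.03 to 97.8) had a partner in Experiment 1. In the other 9 of the 10 parts of the mutant list the share with a partner in Experiment 1 was 96.1% to 98.3%, and in the highest part it was 81.7% (75.4 to 86.6). The number 25 was chosen after the values were seen. Experiments 1 and 2 differ in read length, sequencer and culture. By the paper's counts mutant Ubx also had more reads than any condition of Experiment 1. Its 100 bp reads were set against an input of 36 bp reads. The part of these in the difference was not tested.

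Most of the highest Ubx + Hth peaks had mutant partners of much lower score. The peaks were chosen by their Ubx + Hth score, so a lower partner score follows in part from the choice. The highest lay on 3R from 6212592 to 6213130 and scored 523, with a mutant partner of score 62.2. On 3R from 6210154 to 6210841 the scores were 385 and 49.9, on X from 13782351 to 13785776 they were 403 and 85.5, and on 2L from 10156733 to 10157262 they were 365 and 138. The remaining peak of the 5 is the one on 2L that also leads the mutant list.

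Strong Ubx + Hth peaks with no relaxed mutant partner were also found. The highest scored 315 and lay on 2L from 5889662 to 5890430. The next were on 3L from 2392649 to 2393378 with a score of 298, on X from 20390685 to 20391280 with 285, on 3R from 12173272 to 12174644 with 282, and on 2L from 14540328 to 14541287 with 268. Of these 5, 1 had a partner in the stringent Ubx list of Experiment 2, the peak on X, and 4 had one in that list at the relaxed q-value. Of all 2825 Ubx + Hth peaks without a stringent or relaxed mutant partner, 16.2% had a partner in the stringent Ubx list of Experiment 2 and 73.2% one in the stringent Abd-B list, against 91.6% and 96.6% of the 1518 with a stringent mutant partner. Over all 7971 stringent Ubx + Hth peaks these shares were 48.6% and 86.6%. Stringent Ubx + Hth peaks without a stringent mutant partner lay a median of 18447 bp from the nearest stringent mutant peak. For the 2826 without a relaxed mutant partner, the median distance to the nearest relaxed mutant peak was 2427.5 bp. Of these, 28.7% lay under 1000 bp from one. Such distances depend on the length of the mutant list, and no reference distance was computed.

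Mutant peaks with no Ubx + Hth counterpart were few. By the 5% rule 65 stringent mutant peaks (3.63%) lacked a stringent partner, but 18 of them overlapped a wide Ubx + Hth peak by less, which leaves 47 peaks (2.62%, 1.98 to 3.47) with no overlap. Of these 47, 37 overlapped a relaxed Ubx + Hth peak and 10 (0.56%) overlapped none. The 47 were narrow, at a median of 243 bp, and their median score of 24.2 equalled that of the whole mutant list. Of the 47, 27 (57.4%) had no partner in any of the other 4 stringent lists, against 1.39% of the mutant peaks with a Ubx + Hth partner.

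The strongest mutant peaks without a stringent partner had relaxed Ubx + Hth partners of lower score. The peaks were chosen for a high mutant score and a missing stringent partner, so a lower partner score follows in part from the choice. They lay on chromosome 4 from 614866 to 615108 (score 108.5, relaxed partner 40.9), on 3L from 23106042 to 23106308 (108 and 61.2), on chromosome 4 from 613180 to 613527 (107 and 35.0), on 3L from 24167985 to 24168867 (66.8 and 15.0), and on X from 14093989 to 14094272 (64.4 and 9.61). Of these 5 relaxed partners, 4 scored above the stringent limit of 10, although the stringent list holds no Ubx + Hth peak at these places. Of all 47 mutant peaks with no overlapping stringent Ubx + Hth peak, 30 (63.8%, 49.5 to 76.0) overlapped a relaxed one that scored at least 10.

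By the 5% rule 86 stringent mutant peaks had no relaxed partner, and 76 of them overlapped one below the limit. The highest of the 86 lay on X from 21773092 to 21773505 with a score of 62.5 and had no overlap. The next 4 all lay inside Ubx + Hth peaks of 5519 to 9157 bp in the relaxed list. They were on X from 12650260 to 12650675 (score 54.9), on 2L from 248140 to 248432 (48.6), on X from 2190483 to 2190748 (40.2) and on 2L from 246813 to 247100 (39.6).

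Mutant peaks with a score above that of the Ubx + Hth partner, or with no overlapping stringent Ubx + Hth peak, lay near the centromere side of the arms more often than the whole mutant list. On the 5 long arms, the share of stringent peaks within 2 Mb of the outermost peak on that side was alike in the whole lists, at 6.18% (5.15 to 7.39) for mutant Ubx and 6.23% (5.71 to 6.78) for Ubx + Hth. It was 35.0% (18.1 to 56.7) for the 20 of the 25 highest mutant peaks that lay on these arms, and 8% for the 25 highest Ubx + Hth peaks. Over the whole highest part of each list it was lower, at 10.9% (7.06 to 16.3) for mutant Ubx, or 19 of 175, and 4.52% (3.28 to 6.20) for Ubx + Hth. Among the pairs with the higher mutant score it was 40.0% (24.6 to 57.7), or 12 of 30. Among mutant peaks with no overlapping stringent Ubx + Hth peak it was 36.4% (23.8 to 51.1), or 16 of 44. With 1 Mb these 2 shares, for the higher mutant score and for no overlap, were 30.0% and 29.5%, against 2.92% of all mutant peaks, and with 3 Mb 46.7% and 45.5% against 10.1%. The distance was chosen after the values were seen. The 25 highest mutant peaks share members with both other subsets, such as those on 3L from 23842336 to 23842649 and from 23106042 to 23106308. Some peaks also lie close together, as on 2R from 751663 to 752022 and from 752324 to 752578. The intervals count each peak as separate. Mapping kept unique reads only, and how well these regions can be mapped was not tested.

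**Figure D5:**
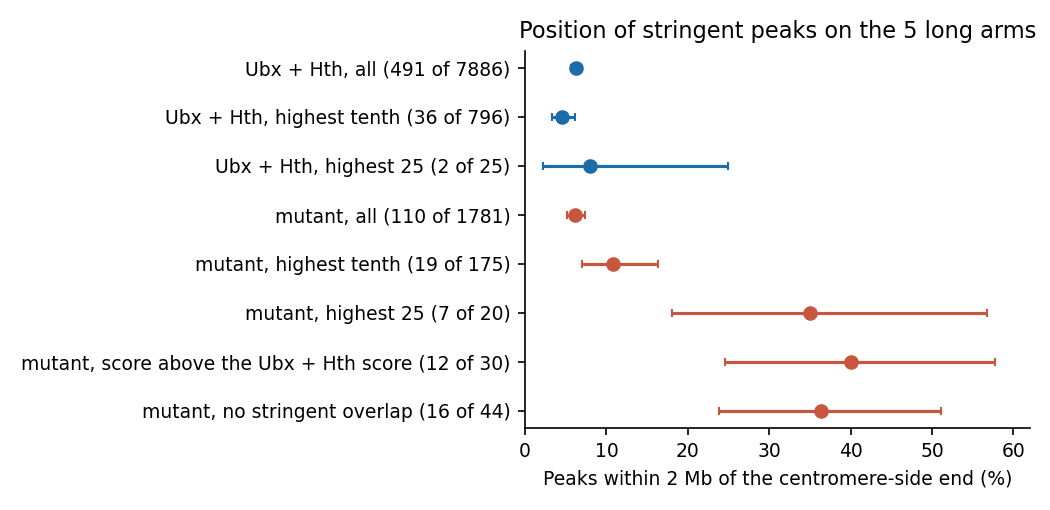
Share of stringent peaks on the 5 long chromosome arms (%, horizontal axis) that lay within 2 Mb of the outermost peak on the centromere side, for the whole lists and for subsets of them. Points are shares, bars are Wilson 95% intervals, and the counts stand in parentheses. The whole lists lie at 6.18% and 6.23%, and the highest part of the mutant list lies at 10.9%. The 3 smaller subsets of mutant peaks, which share some peaks, lie at 35.0% to 40.0%.

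Mutant and Ubx + Hth peaks were spread differently over the chromosomes. At the stringent q-value there were 22.5 mutant peaks per 100 Ubx + Hth peaks in the whole genome, 28.4 on X, 20.2 to 22.3 on the 4 long autosomal arms and 11.9 on chromosome 4. X held 22.9% (21.0 to 24.9) of the mutant list and 18.2% (17.3 to 19.0) of the Ubx + Hth list. In the relaxed lists the shares on X were 18.4% and 17.7%. Of the Ubx + Hth peaks on X, 22.3% (20.2 to 24.5) had a mutant partner. The share was 17.3% (15.3 to 19.4) on 2L, 17.6% on 3L, 19.0% on 2R and 19.5% (17.8 to 21.3) on 3R. It was 9.52% (4.91 to 17.7) on chromosome 4, where 8 of 84 had one.

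Chromosome 4 held 10 stringent mutant peaks, and 4 of them lay between 613180 and 616015. Their mutant scores were 107, 117, 108.5 and 177 from the lowest to the highest coordinate. The Ubx + Hth scores were 24.4 and 95.5 for the peaks of 117 and 177, and the peaks of 107 and 108.5 had partners only in the relaxed list, at 35.0 and 40.9. None of the 4 had a partner in a stringent list of Experiment 1, and the peaks of 117 and 177 had one in the stringent Ubx list of Experiment 2. On the mitochondrial genome the lists held 3 stringent peaks. The mutant peak from 18985 to 19477 scored 117 and its Ubx + Hth partner, from 19002 to 19357, scored 65.6. The mutant peak from 17527 to 17715, with a score of 31.9, had no partner in either Ubx + Hth list.

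Relaxed mutant peaks without a relaxed Ubx + Hth partner were weak. There were 2626 of them (28.1% of the list). Their median score was 4.24 against 10.3 for the 6720 with a partner, and the median widths were 233 and 403.5 bp. In none of the other 4 relaxed lists was a partner found for 89.5% of the 2626. Of the 6720, by contrast, 1.92% had no partner in any of these 4 lists. In the relaxed Ubx list of Experiment 2 a partner was found for 91.1% of the 6720 and 4.87% of the 2626.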

How the data were processed

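ChIP-Seq peaks were taken from the lists of 6 conditions at q-values of 1e-10 and 1e-2. The authors mapped paired reads to BDGP release 5 with Bowtie 1.0.1, kept unique reads and pooled the replicates. Reads from exons of transfected genes were discarded before MACS2 2.1.0.20140616 called peaks against the Experiment 1 input. SAMtools 0.1.19 and bedtools 2.19.1 are also named in the submitters' processing notes. The deposited score is the −log10 of the q-value. Depth cannot be read from the lists.

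Partners (at least 5% reciprocal overlap) were counted with numpy 2.4.6 and pandas 2.3.3 under python 3.11.15, with intervals from scipy 1.17.1 and plots from matplotlib 3.10.9. Counts equalled those of bedtools 2.31.1 in 24 of 24 comparisons, and 2000 of 2000 simulated pairs were classed correctly. No test was run, since 1 pooled list stands for each condition. The members and lists were chosen with earlier results of these data known. Peaks named by rule are the 5 highest-scoring in each list, the 5 highest without a partner in the stringent or relaxed list of the other condition (mutant Ubx) or in the relaxed list (Ubx + Hth), and every mitochondrial peak. Genes and sequences are not reported, because a release 5 annotation and genome were not used here. Alternatives were other overlap rules, other lengths of list, the other q-value, merging of peaks closer than 100 bp and leaving out the mitochondrial genome and chromosome 4.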

Additional observations from a re-analysis of the deposited data

How the results depend on the processing

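No paired analysis was possible because each list pools its replicates, and for the same reason no replicate could be left out. A share was taken as moved when it left the 95% interval of the reported value, and a count when it changed by over 1.5 times, so the same change can move a share and not the count that complements it. By these limits 20 of 37 alternatives moved a value and 17 did not. Only the difference in number of peaks could be reversed, and none of its 4 alternatives reversed it. Merging peaks closer than 100 bp left the shares and this difference exactly as they were, so it says nothing about their stability. The share of Ubx + Hth peaks with a mutant partner (19.0%) was 5.33% with a 50% reciprocal overlap and 14.5% with every peak set to 300 bp. It was 47.6% with both lists relaxed, 64.5% with relaxed partners, 49.3% at equal length and 45.7% for the 1000 highest peaks of each list. With relaxed lists kept at a score of at least 10, it was 32.4%. The share of mutant peaks with a Ubx + Hth partner (96.4%) was 97.4% with any overlap, 23.7% with a 50% reciprocal overlap and 64.8% with 300 bp peaks. It was 71.9% with both lists relaxed, 95.2% with relaxed partners, 60.2% at equal length, 53.6% for the 1000 highest and 90.6% for the higher-scoring 50% of each list. The low values under a 50% overlap follow from the widths, since mutant peaks cover a median of 29.7% of their partner. The difference in number of peaks (6178) was 2352 at the relaxed q-value. Mutant peaks with no relaxed partner (86) numbered 10 with any overlap, 12 when 50% of the narrower peak sufficed and 1622 with a 50% reciprocal overlap. Ubx + Hth peaks with no relaxed mutant partner (2826) numbered 4492 with a 50% reciprocal overlap. Mutant peaks with no stringent partner (65) numbered 47 with any overlap, within the limit for counts. The last alternative, and the relaxed lists kept at a score of at least 10, were chosen after seeing the data.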
